A study of Mus musculus with 2 samples.

Results

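The 9 genes described here encode receptors that hold leukocytes in the bone marrow, release them from it or guide them to inflamed tissue. They were chosen by symbol (*Cxcr2*, *Cxcr4*, *Ccr1*, *Ccr2*, *Cx3cr1*, *Fpr1*, *Fpr2*, *C5ar1* and *Ltb4r1*), and all 9 were found among the 32285 genes listed for both libraries. Mouse bone marrow was profiled by droplet-based 3′ single-cell RNA sequencing in 1 library of control mice (Ctrl) and 1 of Map4k4-cKO mice (cKO), all 13 to 14 weeks old. Each library mixed 2 parts of cells enriched for c-Kit, a receptor of stem and progenitor cells, with 3 parts of marrow whose red cells had been lysed. The study's methods write the genotypes as Mx1-Cre *Map4k4*-/- for the Ctrl littermates and Mx1-Cre *Map4k4* f/f for the cKO mice, so both carry the Mx1-Cre transgene. Mx1-Cre is switched on by interferon signalling in blood cells and in other tissues, and the floxed allele was deleted with injections of poly I:C, which induces interferon. Whether Ctrl mice were injected, and how many mice each library pools, is not given in the sources used here. The comparison asks how the loss of *Map4k4* bears on maturing marrow cells. With 1 library per genotype, no difference between them has a replicate check, no p-value is given, and genotype and library cannot be told apart.

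The 9 receptors couple to inhibitory G proteins and steer cells along gradients of their ligands. CXCR4 binds CXCL12 made by marrow stroma and retains neutrophils and progenitors there, whereas CXCR2, the receptor of CXCL1 and CXCL2, promotes their exit into blood. CCR2 drives the exit of classical monocytes, and CX3CR1 is typical of patrolling monocytes. FPR1 and FPR2 sense formylated peptides, C5AR1 senses the complement fragment C5a, LTB4R1 senses leukotriene B4, and CCR1 binds inflammatory CC chemokines.

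After filters, 8795 Ctrl and 5347 cKO cells remained, with median depths of 4940 and 8783 UMIs (unique molecular identifiers, which tag single captured RNA molecules). Marker genes that include none of the 9 receptors placed 12082 of these 14142 cells in 22 classes. *Map4k4* itself was at 72.3 CPM (counts per 1000000, UMIs of a gene scaled to the total UMIs of the cells summed; 95% interval 70.3 to 74.3) in the library labelled Ctrl and at 64.0 CPM (62.0 to 66.0) in that labelled cKO. Which exons the deletion removes is not given in the sources used here, so reads near the 3′ end may lie outside it. The study reports, from RT-PCR, that stem and progenitor cells lost the transcript once poly I:C had been given. In the counts used here the gene separates the libraries little, so Ctrl and cKO below stand for the labels. Of the barcodes, 3010 have the same string in both libraries. Among the 2145 of them with a class in both, 248 (11.6%) had the same class, where the class shares alone give 11.5%. Intervals here are exact 95% intervals and cover counting error only.

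Cells along the neutrophil line were called HSC/MPP-like (stem and multipotent cells), ProNeu-like, PreNeu-like (cycling), imNeu-like (immature), early mNeu-like and late mNeu-like (mature). The classes are ranges of a marker score rather than separated types, and 1368 of the 14142 kept cells (9.67%) lay within 0.1 of a score limit. Secondary granule markers made up a median of 13.6% of UMIs in Ctrl imNeu-like cells, 2.92% in early and 0.859% in late mNeu-like cells, against 14.4%, 4.20% and 0.820% in cKO. Median depth was lower in Ctrl in each of these classes, with 5953 against 12812 UMIs in imNeu-like, 3234 against 7917.5 in early mNeu-like and 2136 against 5375 in late mNeu-like cells.

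Positions are those of GENCODE vM21 on GRCm38. *Cxcr2* (ENSMUSG00000026180, chr1:74153989-74161246, plus strand) and *Cxcr4* (ENSMUSG00000045382, chr1:128588199-128592293, minus strand) share chromosome 1. *Ccr1* (chr9:123962124-123968692, minus strand) and *Ccr2* (chr9:124101950-124113557, plus strand) lie 133258 bases apart on chromosome 9, which also holds *Cx3cr1* (chr9:119901616-120069879, minus strand). *C5ar1* lies at chr7:16246743-16259540 (minus strand) and *Ltb4r1* at chr14:55765962-55768494 (plus strand). *Fpr1* (chr17:17876471-17883940, minus strand) and *Fpr2* (chr17:17887824-17893952, plus strand) point away from each other, with annotated starts 3884 bases apart. *Fpr2* overlaps *Fpr3* on the same strand, so reads of these paralogs could be split. *Fpr3* is listed at 0 UMIs in both libraries, and *Fpr2* has 9275 and 11915 UMIs over all barcodes. *Cx3cr1* overlaps 3 other genes on its own strand.

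The 250 bases upstream of the start are shown for 4 receptors whose patterns the results turn on, the release and retention receptors and the neighbouring formyl peptide receptors (RefSeq, GRCm38.p6, each printed 5′ to 3′ on the gene's strand). Capitals mark GAGGAA, a core of sites bound by the myeloid factor PU.1, and CCGCCC, a GC box, on either strand, so TTCCTC is GAGGAA read on the other strand. The windows are chr1:74153744-74153993, chr1:128592300-128592549, chr17:17883940-17884189 and chr17:17887574-17887823 in the order printed.
*Cxcr2*: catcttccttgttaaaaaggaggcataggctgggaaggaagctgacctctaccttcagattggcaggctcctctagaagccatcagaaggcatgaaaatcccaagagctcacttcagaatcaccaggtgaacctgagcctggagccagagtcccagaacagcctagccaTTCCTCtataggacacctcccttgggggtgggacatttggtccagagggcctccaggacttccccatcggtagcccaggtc
*Cxcr4*: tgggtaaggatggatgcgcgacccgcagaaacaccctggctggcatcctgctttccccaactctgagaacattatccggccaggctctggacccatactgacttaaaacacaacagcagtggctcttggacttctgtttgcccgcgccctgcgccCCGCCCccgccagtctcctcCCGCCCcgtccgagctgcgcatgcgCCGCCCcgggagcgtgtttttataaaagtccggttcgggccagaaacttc
*Fpr1*: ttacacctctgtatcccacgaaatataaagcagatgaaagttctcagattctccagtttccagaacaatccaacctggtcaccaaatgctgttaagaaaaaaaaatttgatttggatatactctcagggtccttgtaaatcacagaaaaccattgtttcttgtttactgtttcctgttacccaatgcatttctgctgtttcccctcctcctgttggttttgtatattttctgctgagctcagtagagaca
*Fpr2*: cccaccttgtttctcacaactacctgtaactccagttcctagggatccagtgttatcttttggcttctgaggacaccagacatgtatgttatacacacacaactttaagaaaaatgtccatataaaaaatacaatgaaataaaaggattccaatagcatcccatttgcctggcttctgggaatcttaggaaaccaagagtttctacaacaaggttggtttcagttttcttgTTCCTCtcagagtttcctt
GAGGAA lay in the windows of 4 of the 9 receptors (*Cxcr2*, *Ccr1*, *Fpr2* and *Ltb4r1*) and in 23.3% of 32817 windows of the same length. CCGCCC lay in 2 (*Cxcr4*, with 3 copies, and *Ltb4r1*) and in 32.7% of all windows. TTGCNNAA, a form of the C/EBP motif with 2 free bases, lay in none of the 9 and in 9.57% of all windows, and no searched motif overlapped another in the sequences printed. The window of *Cxcr4* had 61.2% G and C, those of *Fpr1* and *Fpr2* 38.4% and 38.8%, and the median window 52.4%. A match is a run of letters and was not tested for binding.

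In HSC/MPP-like cells both the retention and the release receptor lay above MEP-like cells (megakaryocyte and erythroid progenitors). In Ctrl neither lay above ProEry-like cells (erythrocyte progenitors). The retention receptor stayed above the MEP-like level at each later stage. The release receptor was near the MEP-like level in ProNeu-like cells and above it from PreNeu-like cells on. It was highest in the mature stages in both libraries. *Cxcr4* was at 46.3 CPM (40.2 to 53.1) in HSC/MPP-like cells of Ctrl and 42.9 (32.9 to 55.0) in those of cKO, beside 26.7 and 21.0 in MEP-like cells. ProEry-like cells of Ctrl were at 58.0 (45.8 to 72.5). *Cxcr4* was at 73.6 CPM (69.6 to 77.9) in Ctrl ProNeu-like cells, 120 (113 to 128) in PreNeu-like, 128 (120 to 137) in imNeu-like, 224 (209 to 240) in early mNeu-like and 218 (194 to 243) in late mNeu-like cells. In cKO the same stages had 69.9 (66.0 to 74.0), 121 (114 to 128), 111 (104 to 117), 154 (146 to 162) and 119 (107 to 133) CPM. The early and late mNeu-like levels of Ctrl overlap, whereas in cKO the late level was below the early one, by a log2 ratio of -0.37 (-0.54 to -0.20).

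*Cxcr2* was at 20.8 CPM (18.7 to 23.1) in Ctrl ProNeu-like cells, a level like the 20.7 CPM of MEP-like cells, which should lack it. HSC/MPP-like cells were at 31.2 (26.3 to 36.9) in Ctrl and 30.4 (22.1 to 40.9) in cKO. ProEry-like cells of Ctrl were at 39.2 (29.2 to 51.4). *Cxcr2* of Ctrl was at 49.3 (44.8 to 54.2) in PreNeu-like, 110 (102 to 118) in imNeu-like, 770 (742 to 799) in early and 1366 (1306 to 1429) in late mNeu-like cells. Off this line, Ctrl levels ranged from 15.1 CPM in megakaryocyte-like to 127 in macrophage-like cells. B-like cells, at 72.6 (55.6 to 93.0), lay above PreNeu-like cells, so the PreNeu-like level exceeds that of MEP-like cells but not of every class off the line. In cKO the levels were 21.3, 66.8, 161, 800 (782 to 817) and 1611 (1564 to 1659) CPM over the same stages, with 16.2 in MEP-like cells. The interval of each stage from PreNeu-like on lay above that of the stage before in both libraries. From imNeu-like to late mNeu-like cells the log2 ratio was 3.64 (3.52 to 3.76) in Ctrl and 3.32 (3.24 to 3.40) in cKO.

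**Figure D1:**
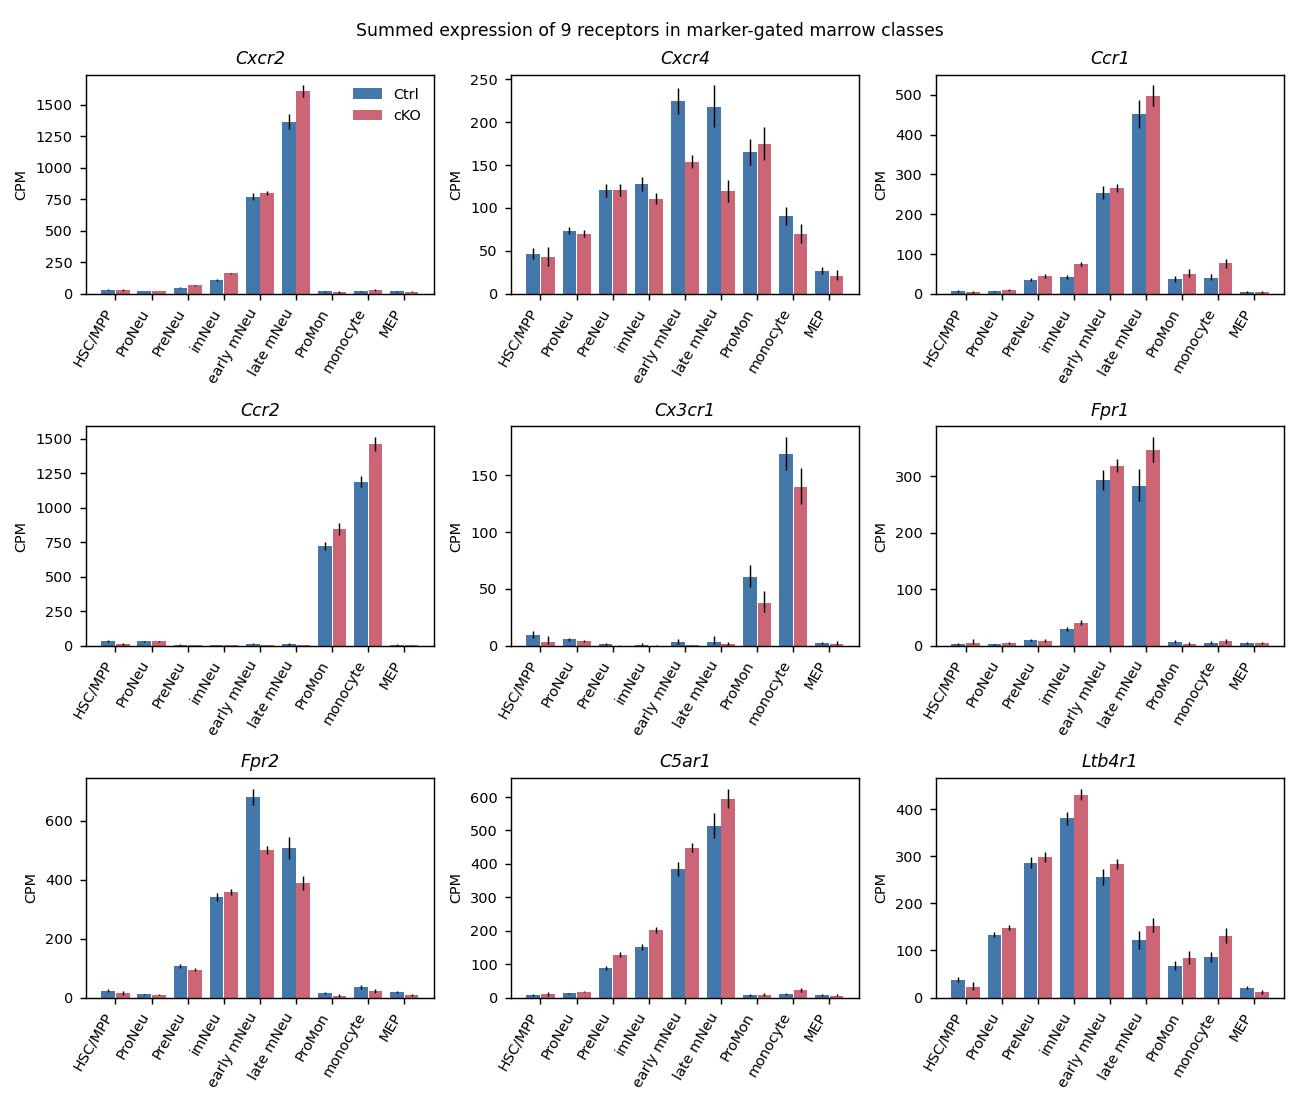
CPM of each receptor (vertical axis, linear, own scale per panel) in 9 classes with at least 50 cells in each library, Ctrl in blue and cKO in red, with exact 95% Poisson intervals as bars. *Cxcr2*, *Ccr1*, *Fpr1* and *C5ar1* are highest in mature neutrophil classes, *Ltb4r1* in imNeu-like cells, and *Ccr2* and *Cx3cr1* in monocyte-like cells.

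The receptors of inflammatory signals came on at different stages. *Ltb4r1* was the earliest, at 133 CPM (128 to 139) in ProNeu-like cells, 287 (276 to 298) in PreNeu-like and 381 (366 to 395) in imNeu-like Ctrl cells, and then lower, at 255 (239 to 272) in early and 122 (104 to 141) in late mNeu-like cells. In cKO it was also highest in imNeu-like cells, with 148, 299, 431 (419 to 444), 283 and 153 (139 to 168) CPM over the same stages. ProNeu-like and late mNeu-like levels overlap in each library. *Ltb4r1* was the only receptor of the 7 with neutrophil expression that was lower in late mNeu-like than in imNeu-like cells, with log2 ratios of -1.65 (-1.88 to -1.42) in Ctrl and -1.50 (-1.64 to -1.35) in cKO. As a mean of per-cell proportions *Fpr2* of cKO was lower too, at -0.16 against 0.12 from the sums, and in Ctrl it was at 0.13 against 0.57.

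*Fpr2* reached 50.03% of its highest stage in imNeu-like Ctrl cells, at 341 CPM (328 to 355), and 71.7% in cKO, at 358 (347 to 370). Its highest stage was early mNeu-like in both, at 682 (655 to 709) and 500 (486 to 514) CPM, with 506 (470 to 545) and 388 (365 to 412) in late mNeu-like cells. Its neighbour *Fpr1* was at only 28.8 CPM (25.0 to 33.1) in imNeu-like Ctrl cells and 40.7 (37.0 to 44.7) in cKO, or 9.85% and 11.7% of its highest stage. In early mNeu-like cells *Fpr1* was at 293 (276 to 311) and 318 (307 to 329), and in late mNeu-like cells at 282 (255 to 311) and 347 (325 to 369) CPM.

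*C5ar1* was higher at each stage than at the one before, at 12.6 CPM in Ctrl ProNeu-like cells and 88.8, 152, 384 and 513 (477 to 552) in the later stages, and at 17.5 and then 128, 202, 448 and 596 (567 to 625) in cKO. *Ccr1* was at 42.6 CPM (37.9 to 47.6) in imNeu-like Ctrl cells, 253 (237 to 270) in early and 452 (417 to 488) in late mNeu-like cells, against 74.7 (69.6 to 80.1), 267 (257 to 277) and 498 (472 to 525) in cKO. From imNeu-like to late mNeu-like cells, 4 receptors (*Cxcr2*, *Ccr1*, *Fpr1* and *C5ar1*) were more than 2-fold higher in both libraries, among 7 with neutrophil expression. The receptors *Ccr2* and *Cx3cr1* were set aside from this count for their low levels in these stages. *Ccr2* was at a log2 ratio of 1.22 (0.30 to 2.09) in Ctrl and 0.77 (-0.29 to 1.76) in cKO. *Cx3cr1* was at 1.86 and 3.52, from 5 and 3 UMIs in late mNeu-like cells. The share of all genes past this limit was 17.8% in Ctrl and 18.7% in cKO. These shares had no filter for neutrophil expression and are for each library alone, so they are not a like measure for the count. Lower past 2-fold were 16% of genes in Ctrl and 21.8% in cKO, and *Ltb4r1* alone among the 7.

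Shares of cells tell the same stages apart once each cell is thinned to 1000 UMIs. A UMI of *Cxcr2* was found in 73.9% (70.2 to 77.4) of late mNeu-like Ctrl cells and 75.2% (71.3 to 78.9) of cKO cells, against 1.91% and 9.09% of MEP-like cells. The MEP-like shares are also of thinned cells and stand beside summed levels of 20.7 and 16.2 CPM. At least 3 of the 9 receptors were found in 0.239% of thinned MEP-like Ctrl cells and 3.03% of cKO cells. The cause of the higher cKO share was not tested. Unthinned, 89.2% and 97.5% of late mNeu-like cells had a UMI, beside median depths of 2136 and 5375 UMIs. *Cxcr4* was found in 20.2% (17.8 to 22.8) of early mNeu-like Ctrl and 14.5% (12.6 to 16.6) of cKO cells, against 2.86% and 2.02% of MEP-like cells, and unthinned in 51.8% and 64.9%. The share of *Cxcr4* in cKO was thus lower at equal depth and higher without thinning. A UMI of at least 3 of the 9 receptors was found in 42.4% of thinned late mNeu-like Ctrl cells and 44.1% of cKO cells, and in 10.5% and 11% of imNeu-like cells.

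Release and retention transcripts did not exclude each other in single cells. In thinned late mNeu-like Ctrl cells, *Cxcr2* was found in 72 of 104 cells with a UMI of *Cxcr4* (69.2%, 59.4 to 77.9) and in 367 of 490 without (74.9%, 70.8 to 78.7). In cKO the shares were 75.5% (61.7 to 86.2) of 53 cells and 75.2% (71.0 to 79.1) of 460 cells. The intervals overlap in each library.

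Between the libraries, 6 receptors were higher and 3 lower in cKO in the class where each had its highest mean CPM of both libraries, and none passed 2-fold there. The median ratio of all genes was itself below 0 in each class, at a log2 ratio of -0.32 in late mNeu-like, -0.42 in early mNeu-like, -0.35 in imNeu-like and -0.20 in monocyte-like cells, so each ratio is also given relative to that median. In late mNeu-like cells 1.27% of 5204 genes were more than 2-fold higher and 7.99% more than 2-fold lower in cKO, and 0 of the 7 receptors with at least 50 UMIs was past either limit. In early mNeu-like cells these background shares were 0.793% and 10.1%, and in imNeu-like cells 0.453% and 7.59%. Of the receptors, *Ccr2*, near background there, was past 2-fold in early mNeu-like cells and 0 of 8 was in imNeu-like cells. Elsewhere *Ccr2* was lower past 2-fold in HSC/MPP-like (-1.63, -2.47 to -0.88), PreNeu-like (-1.46) and MEP-like cells (-2.12). *Fpr2* was so in ProMon-like (-1.18) and MEP-like cells (-1.04). These levels were low. *Ccr2* was at 34.2 and 11.1 CPM in HSC/MPP-like cells of Ctrl and cKO (152 and 16 UMIs). It was at 6.73 and 2.44 in PreNeu-like and 7.99 and 1.84 in MEP-like cells, the latter from 56 and 5 UMIs. *Fpr2* was at 14.7 and 6.48 in ProMon-like cells (41 and 12 UMIs) and 18.1 and 8.83 in MEP-like cells, the class used here for background. Lower past 2-fold were thus 1 of 6 receptors in HSC/MPP-like, 1 of 8 in PreNeu-like, 1 of 7 in ProMon-like and 2 of 6 in MEP-like cells. Of all genes, 2.69%, 3.38%, 2.92% and 5.05% were lower past 2-fold there.

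*Cxcr4* was lower in the mature cells of cKO. Its log2 ratio of cKO over Ctrl was -0.54 (-0.67 to -0.42) in early mNeu-like cells, or -0.12 relative to the class median, and -0.87 (-1.10 to -0.64) in late mNeu-like cells, or -0.54 relative to it. In earlier stages the difference was smaller, at -0.21 (-0.34 to -0.09) in imNeu-like cells, which turns to 0.14 relative to the median, and 0.01 (-0.11 to 0.13) in PreNeu-like cells, or 0.31 relative to it. Only in early and late mNeu-like cells of the neutrophil line, from ProNeu-like on, was *Cxcr4* below the class median. The relative interval of early mNeu-like cells, -0.24 to 0.005, holds 0. In cells with 1000 to under 4000 UMIs the ratio of early mNeu-like cells was -0.34 (-0.67 to -0.02), and in cells with 4000 to under 8000 UMIs -0.35 (-0.55 to -0.14). Among those with 8000 to under 16000 UMIs, which include 15 of Ctrl, it was -0.12 (-0.72 to 0.57). The difference in each of these windows was smaller than in the class as a whole. The ratio of *Cxcr4* in late mNeu-like cells was not split by depth. Median depths in that class were 2136 UMIs in Ctrl and 5375 in cKO, and 12.5% of genes had a lower ratio there. In ProMon-like cells, the class where *Cxcr4* of cKO was highest, the ratio was 0.08 (-0.13 to 0.29).

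*Cxcr2* was higher in late mNeu-like cells of cKO by 0.24 (0.16 to 0.32), or 0.56 relative to the median, and in imNeu-like cells by 0.55 (0.43 to 0.68), or 0.90. In early mNeu-like cells it was at 0.05 (-0.01 to 0.12), or 0.48 relative to the median. The late mNeu-like value differed between depths, at 0.08 (-0.05 to 0.21) among 548 Ctrl and 161 cKO cells with 1000 to under 4000 UMIs and at 0.59 (0.41 to 0.78) among 46 and 285 cells with 4000 to under 8000 UMIs. The imNeu-like ratios of *Cxcr2* and *Ccr1* were not split by depth. Median depths in that class were 5953 UMIs in Ctrl and 12812 in cKO, and early mNeu markers made up medians of 0.437% and 0.542% of UMIs. In imNeu-like cells *Ccr1* had a ratio of 0.81 (0.62 to 1.01), or 1.16 relative to the median, where 1.13% of genes were past 2-fold higher on the latter scale. In late mNeu-like cells *Ccr1* had a ratio of 0.14 (0.01 to 0.28), or 0.47. *C5ar1* was at 0.21 (0.09 to 0.34) in late mNeu-like cells, *Fpr1* at 0.30 (0.13 to 0.47) there and *Ltb4r1* at 0.18 (0.11 to 0.25) in imNeu-like cells, or 0.54, 0.62 and 0.53 relative to the median. In cells with 2000 to 8000 UMIs, *Fpr1* was at 0.09 (-0.10 to 0.28) and *Ltb4r1* at 0.09 (-0.07 to 0.24), and as means of per-cell proportions *Ccr1* and *C5ar1* of late mNeu-like cells were at 0.05 and 0.06. The late mNeu-like value of *Ccr1* has an interval that holds 0 under 5 other settings, among them cells from 500 UMIs on (0.11, -0.02 to 0.25) and classes named by summed marker share (0.06, -0.09 to 0.21). That of *C5ar1* holds 0 under the latter (0.10, -0.04 to 0.24), and that of *Fpr1* in cells from 2000 UMIs on (0.16, -0.01 to 0.34).

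The formyl peptide receptors differed in direction. *Fpr2* was lower in cKO in early mNeu-like cells, with a log2 ratio of -0.45 (-0.52 to -0.38), and in late mNeu-like cells, at -0.38 (-0.52 to -0.24), but near the median of all genes in both, at -0.02 and -0.06 relative to it. Among early mNeu-like cells with 8000 to under 16000 UMIs, which include 15 of Ctrl, it was at 0.10 (-0.25 to 0.48). In imNeu-like cells *Fpr2* was at 0.07, with an interval that holds 0, or 0.42 relative to the median. Its neighbour *Fpr1* lay above the median in each of these classes, by 0.54 in early mNeu-like, 0.62 in late mNeu-like and 0.85 in imNeu-like cells.

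**Figure D2:**
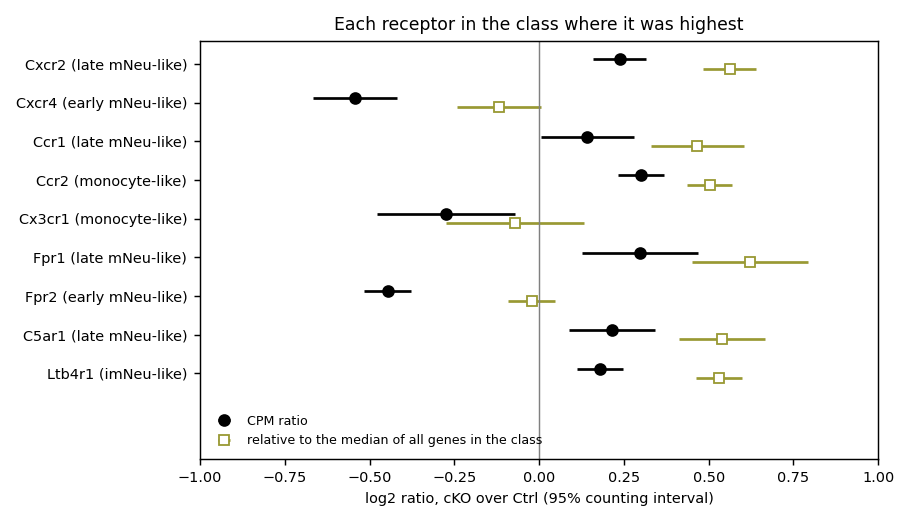
Log2 ratio of cKO over Ctrl (horizontal axis) for each receptor in the class with its highest mean CPM of both libraries, as CPM (black circles) and relative to the median of all genes in the class (open squares), with exact 95% counting intervals. *Cxcr4*, *Cx3cr1* and *Fpr2* lie below 0 in CPM and near 0 relative to the median, and the other 6 lie above 0 on both scales.

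Because stage classes can hold cells of different maturity, the 6530 cells from PreNeu-like to late mNeu-like were also split into 10 bins of equal cell number by the ratio of mature neutrophil to secondary granule marker UMIs. The bins do not match depth, which was higher in cKO in every bin. Median UMIs were 11760.5 in Ctrl and 23361 in cKO in bin 1, and 2701 and 5839.5 in bin 10. *Cxcr2* and *C5ar1* were higher in cKO in 10 of 10 bins, *Ccr1* in 9 of 10 and *Fpr1* in 8 of the 9 bins with at least 50 UMIs. *Ltb4r1* was at 279 CPM in both libraries in bin 7 and higher in cKO in the other bins. Relative to the bin medians (-0.20 to -0.40), each of these receptors was higher in every one of these bins. Several of these differences were small, and the interval lay above 0 in 8 bins for *Cxcr2* and *C5ar1*, 6 for *Ccr1*, 4 for *Ltb4r1* and 3 for *Fpr1*. The bins are parts of the same pair of libraries and do not repeat the comparison. The share of all genes higher or lower in as many bins is not given, so the bin counts do not set the receptors apart from other genes.

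*Cxcr4* was lower in cKO in 9 of 10 bins and relative to the medians in 5. In the least mature bin it was at 105 CPM in Ctrl and 106 in cKO, a log2 ratio of 0.02 (-0.17 to 0.20). In bin 7 it was at 237 and 167, a ratio of -0.50 (-0.72 to -0.28), and in the most mature bin at 248 and 126, a ratio of -0.97 (-1.24 to -0.70). The distance between the libraries was thus larger in bin 10 than in bins 7 and 1, with Ctrl levels higher toward the mature end and cKO levels highest in bin 7. *Fpr2* was lower in 9 of 10 bins but relative to the medians in only 4, and was at 525 and 353 CPM in the most mature bin, a ratio of -0.57 (-0.74 to -0.40).

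**Figure D3:**
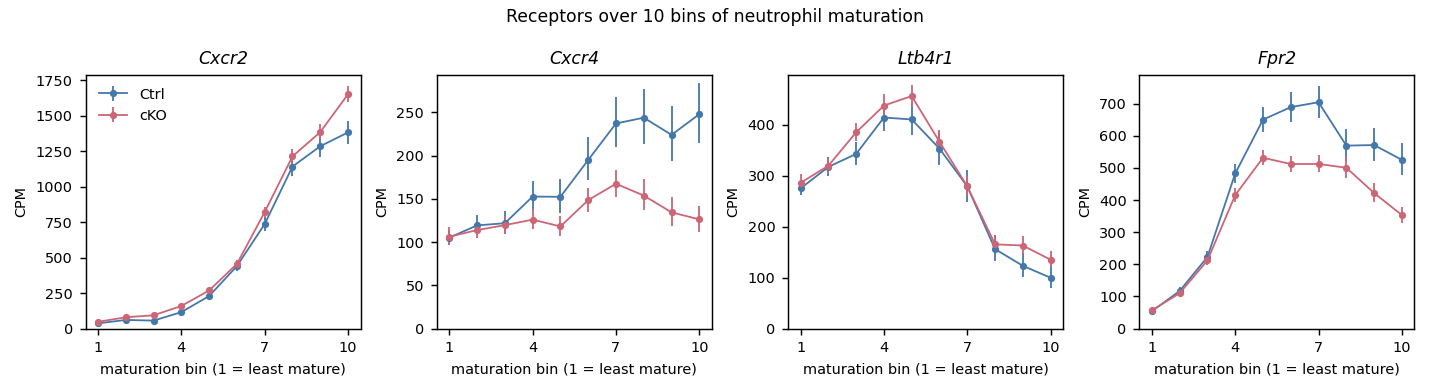
CPM (vertical axis, linear) of 4 receptors over 10 bins of neutrophil maturation (horizontal axis, bin 1 least mature), Ctrl in blue and cKO in red, with exact 95% Poisson intervals. The intervals of the libraries overlap for *Cxcr4* in bins 1 to 4 and part toward bin 10, where Ctrl is at 248 and cKO at 126.

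*Ccr1*, *Fpr1* and *C5ar1* were low in ProNeu-like cells, where *Cxcr4* and *Ltb4r1* already lay above their MEP-like levels. In ProNeu-like cells *Ccr1* was at 6.50 CPM in Ctrl and 9.53 in cKO, *Fpr1* at 2.59 and 4.62, and *C5ar1* at 12.6 and 17.5, with MEP-like cells at 4.57 and 3.31 for *Ccr1*, 4.42 and 4.05 for *Fpr1*, and 7.13 and 5.89 for *C5ar1*. The log2 ratio of *Fpr1* in ProNeu-like cells, from 43 and 78 UMIs, was 0.84 (0.28 to 1.41), or 1.11 relative to the class median. On that scale 0.798% of genes were past 2-fold higher there. ProNeu-like cells of cKO also held more *S100a8* and *S100a9* RNA, of abundant neutrophil proteins, with a median of 5.61% of UMIs against 1.38% in Ctrl, and its part in these values was not tested.

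Along the monocyte line, *Ccr2* and *Cx3cr1* were higher in monocyte-like than in ProMon-like cells in both libraries, whereas *Cxcr4* was lower. This step was not split by depth, and ProMon-like cells were deeper, with medians of 11420.5 against 6663 UMIs in Ctrl and 20669 against 10572 in cKO. In monocyte-like cells with 16000 or more UMIs, *Ccr2* was at 384 CPM in Ctrl and 843 in cKO, beside 722 and 843 in ProMon-like cells of all depths. *Cx3cr1* was at 52.5 and 88.7 there, beside 60.7 and 37.8. *Ccr2* was at 722 CPM (691 to 754) in Ctrl ProMon-like cells (monocyte progenitors), 1188 (1151 to 1227) in monocyte-like cells and 576 in the 44 cells with markers of patrolling monocytes (*Ace* and *Treml4*). *Cx3cr1* was at 60.7 (51.9 to 70.6), 169 (155 to 184) and 641 CPM in the same order, and *Cxcr4* at 165 (150 to 181), 90.2 (80.1 to 101) and 45.3. The last *Cxcr4* level rests on 7 UMIs, and its log2 ratio over monocyte-like cells was -0.99 (-2.32 to 0.07). In cKO, *Ccr2* was at 843 (802 to 886) and 1463 (1414 to 1513), *Cx3cr1* at 37.8 (29.5 to 47.8) and 140 (125 to 156), and *Cxcr4* at 175 (156 to 195) and 69.7 (59.2 to 81.4) CPM in ProMon-like and monocyte-like cells. The patrolling class has 7 cKO cells, where *Ccr2* was at 551 and *Cx3cr1* at 368 CPM, from 24 and 16 UMIs. From ProMon-like to monocyte-like cells the log2 ratio was 0.72 (0.64 to 0.80) and 0.80 (0.71 to 0.88) for *Ccr2*, 1.48 (1.22 to 1.73) and 1.89 (1.51 to 2.28) for *Cx3cr1*, and -0.87 (-1.09 to -0.65) and -1.32 (-1.61 to -1.05) for *Cxcr4*, in Ctrl and cKO.

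Between the libraries, *Ccr2* of monocyte-like cells had a log2 ratio of 0.30 (0.23 to 0.37), or 0.50 relative to the class median, and *Cx3cr1* of -0.27 (-0.48 to -0.07), or -0.07. Both values also differed between depths. In the 252 Ctrl and 64 cKO cells with 2000 to 8000 UMIs, *Ccr2* was at 1796 (1722 to 1873) and 1765 (1631 to 1907) CPM, a ratio of -0.03 (-0.15 to 0.10). In cells with 16000 or more UMIs it was at 384 (343 to 429) in 37 Ctrl cells and 843 (774 to 918) in 27 cKO cells. *Cx3cr1* went from 316 (258 to 383) to 52.5 (38.0 to 70.7) CPM between the lowest and the highest depth window of Ctrl. Without the barcodes found in both libraries the ratio was 0.20 (0.11 to 0.30) for *Ccr2* and -0.71 (-1.02 to -0.40) for *Cx3cr1*, and within those barcodes 0.46 (0.36 to 0.56) and 0.17 (-0.12 to 0.46).

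**Figure D4:**
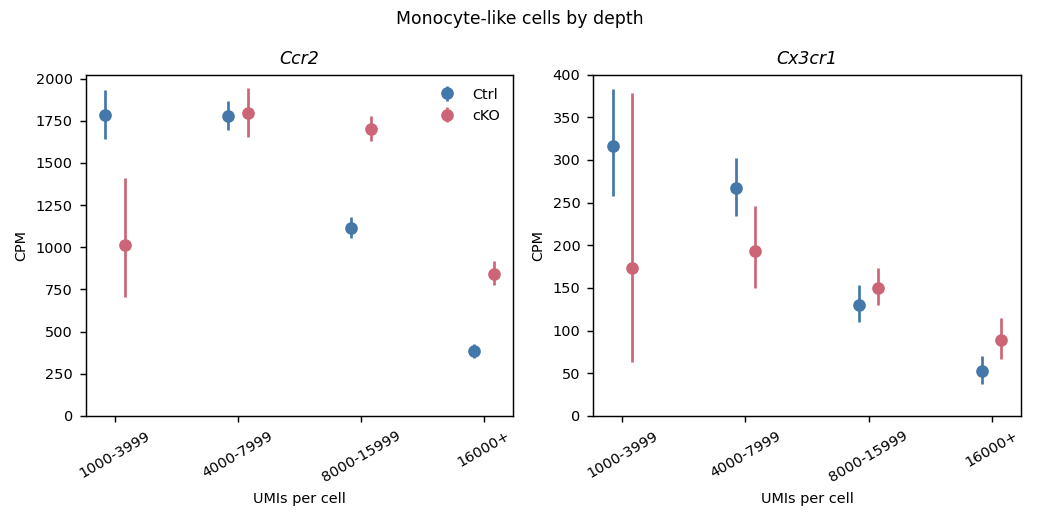
CPM (vertical axis, linear) of *Ccr2* and *Cx3cr1* in monocyte-like cells by UMIs per cell (horizontal axis), Ctrl in blue and cKO in red, with exact 95% Poisson intervals. In Ctrl, *Ccr2* is at 384 and *Cx3cr1* at 52.5 in the deepest cells, and the lowest cKO window holds 15 cells.

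Of the receptors of inflammatory signals, 3 were higher and *Fpr2* was lower in monocyte-like cells of cKO. *C5ar1* was at 10.3 CPM (7.09 to 14.5) in Ctrl and 21.2 (15.6 to 28.1) in cKO, a log2 ratio of 1.04 (0.37 to 1.72), and was the only receptor there past 2-fold in CPM, against 1.13% of 8066 genes higher and 6.29% lower. Its Ctrl level rests on 33 UMIs and overlaps that of MEP-like cells, at 7.13 CPM (5.29 to 9.40), while the cKO level lies above their 5.89 (3.36 to 9.56). In Ctrl, *C5ar1* was at 25.8 CPM (16.1 to 39.0) in B-like, 21.3 (12.6 to 33.7) in plasma cell-like and 6.26 (1.29 to 18.3) in pDC-like cells. The cKO level of monocyte-like cells thus does not lie above those of all other classes. *Ccr1* was at 40.9 (34.2 to 48.5) and 76.3 (65.3 to 88.5), a ratio of 0.90 (0.56 to 1.24), and *Ltb4r1* at 85.2 (75.4 to 96.0) and 131 (117 to 147), a ratio of 0.62 (0.38 to 0.87). *Fpr2* was at 35.6 and 22.5 CPM, a ratio of -0.66 (-1.17 to -0.17), or -0.46 relative to the class median, beside MEP-like levels of 18.1 and 8.83. Relative to the class median, *C5ar1* and *Ccr1* were both past 2-fold, at 1.24 and 1.10, as were 2.42% of all genes. Ratios of these receptors were not split by depth in this class, where those of *Ccr2* and *Cx3cr1* differed between depths. Early mNeu markers made up a median of 0.105% of UMIs in Ctrl and 0.146% in cKO monocyte-like cells, late ones 0.123% and 0.161%, and secondary granule markers 0.393% and 0.317%. The part of neutrophil RNA in these levels was not tested.

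From PreNeu-like cells on, *Ccr2* and *Cx3cr1* were low in the neutrophil classes, beside MEP-like levels of 7.99 and 1.84 CPM for *Ccr2* and 2.00 and 1.84 for *Cx3cr1*. In ProNeu-like cells *Ccr2* was above these, at 32.0 CPM (29.4 to 34.9) in Ctrl and 30.2 (27.6 to 32.9) in cKO, and *Cx3cr1* was at 5.48 and 4.15. In early mNeu-like cells *Ccr2* was at 12.6 CPM (9.23 to 16.8) in Ctrl and 3.51 (2.44 to 4.88) in cKO, and *Cx3cr1* at 3.29 and 0.20. The MEP-like cells of Ctrl thus also held more *Ccr2* than those of cKO.

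Outside these lines, 11 further classes had at least 50 cells in Ctrl, and their levels have no cKO counterpart. *Ccr2* was at 1188 CPM (1091 to 1292) in cDC-like (dendritic) cells, as in monocyte-like cells, at 426 (338 to 530) in NK-like, 190 (153 to 233) in pDC-like and 149 (106 to 203) in T-like cells. *Cxcr4* was at 137 (111 to 167) in basophil/mast-like and 134 (118 to 151) in ProB-like cells, whose intervals overlap, and at 85.4 (67.0 to 107) in B-like cells. *Ccr1* was at 88.5 CPM (67.8 to 113) in basophil/mast-like cells, its highest level outside the mature neutrophils. *Cxcr2* and *Fpr2* were both at 127 CPM (78.7 to 194) in the 57 macrophage-like cells, whose secondary granule markers made up a median of 0.982% of UMIs against 0.287% in MEP-like cells. The part of this neutrophil RNA in those levels was not tested.

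**Figure D5:**
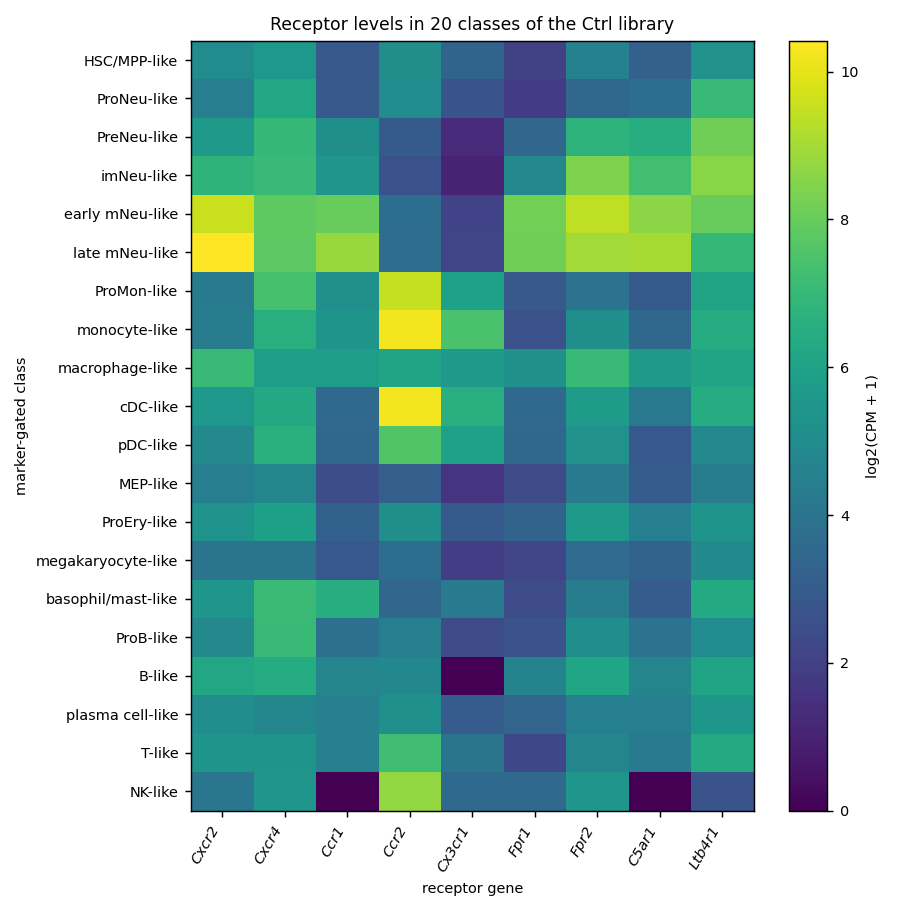
Log2(CPM + 1) of the 9 receptors (horizontal axis) in the 20 classes with at least 50 cells in Ctrl (vertical axis), as colour. The mature neutrophil classes are high in *Cxcr2*, *Ccr1*, *Fpr1*, *Fpr2* and *C5ar1*, and the ProMon-like, monocyte-like and cDC-like classes in *Ccr2*.

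Over 29 class and library profiles, the closest pairs among the receptors were *Cxcr2* with *Fpr1* (Pearson's r of log2(CPM + 1), 0.96), *Fpr1* with *Fpr2* (0.91), *Cxcr2* with *C5ar1* and with *Fpr2* (0.90 each) and *Ccr2* with *Cx3cr1* (0.89). *Cxcr2* and *Cxcr4* had an r of 0.53. The profiles come from only 2 libraries, and these values are descriptions. The other genes considered were the 6810 that reached 50 CPM in a profile and were not markers used for the classes. Among these, those most like *Cxcr2* were *Cd33*, *Mxd1* and *Il1f9* (0.94 to 0.95), those most like *Fpr1* were *Adam8*, *Amer2* and *Grina* (0.95), and those most like *Fpr2* were *Ly6g*, *1700047M11Rik* and *Cd33* (0.96). For *Cxcr4* they were *Kctd20*, *Tmem50b* and *Csf2ra* (0.82 to 0.84), for *Ccr1* *Cd300lb*, *Pi16* and *Dmxl2* (0.90 to 0.93), for *C5ar1* *Crispld2*, *Ifnlr1* and *Siglece* (0.93 to 0.94) and for *Ltb4r1* *Rhou*, *Ebi3* and *Nhsl2* (0.93). For *Ccr2* they were *S100a4*, *Olfm1* and *Ifi211* (0.94 to 0.95), and for *Cx3cr1* *Npc2*, *Ifi207* and *Lgals1* (0.87 to 0.90).

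Of 27 other chemoattractant receptors, 4 had at least 50 UMIs in late mNeu-like cells, with a median log2 ratio of -0.14 against -0.32 for all genes. Of all genes there, 1.27% were higher and 7.99% lower past 2-fold. Only *Cxcr1*, a further receptor of CXC chemokines, was past 2-fold, at 10.7 CPM in Ctrl (15 UMIs) and 61.3 in cKO (171 UMIs), a log2 ratio of 2.52 (1.76 to 3.39). The other 3 were the platelet-activating factor receptor *Ptafr*, at 158 and 103 CPM, the decoy C5a receptor *C5ar2*, at 71.8 and 51.9, and *S1pr4*, at 56.9 and 64.8. In monocyte-like cells 3 of the 27 reached 50 UMIs and none was past 2-fold, where 1.13% of all genes were higher and 6.29% lower past it, with *Cysltr1*, a leukotriene receptor, at 24.4 and 34.8 CPM.

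Of 21 ligands and enzymes that make them, 9 had at least 50 UMIs in late mNeu-like cells, 1 higher and 1 lower past 2-fold, beside 1.27% and 7.99% of all genes. *Cxcl2*, a ligand of CXCR2, was at 59.7 CPM in Ctrl and 145 in cKO, a log2 ratio of 1.28 (0.94 to 1.64). *Lta4h*, which makes leukotriene B4, was at 112 and 48.4, a ratio of -1.21 (-1.55 to -0.87), or -0.88 relative to the class median. The most abundant by the mean CPM of both libraries were *Alox5ap*, at 1471 and 2226 CPM, *Ccl6*, itself a marker used for the class, *Anxa1* and *Alox5*. In monocyte-like cells none of the 9 measured was past 2-fold, and *Alox5ap*, at 764 and 1417 CPM, passed it only relative to the class median (1.09), as did 2.42% of all genes. *Cxcl12* was under 1 CPM in each of the 8 classes inspected.

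Of 23 signalling and desensitisation genes, 21 had at least 50 UMIs in late mNeu-like cells, with a median log2 ratio of -0.35 against -0.32 for all genes. Past 2-fold were 0 of these 21, beside 1.27% of all genes higher and 7.99% lower. The most abundant by the mean CPM of both libraries were *Rac2*, at 1336 and 1814 CPM, *Gnai2*, at 1490 and 1588, *Rgs2* and *Gng5*. In monocyte-like cells 22 were measured and 2 were lower past 2-fold, where 6.29% of all genes were, the receptor kinase *Grk3*, at 61.5 and 26.0 CPM with a ratio of -1.24 (-1.69 to -0.82), and the phospholipase *Plcb2*, at 37.8 and 17.2 with -1.14 (-1.70 to -0.60). Relative to the class median *Plcb2* was at -0.93.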

How the data were processed

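Per the submitters' notes and file headers, the authors deposited unnormalized UMI counts for each gene and barcode, made with Cell Ranger 5.0.0 on mm10. Cells with at least 1000 UMIs, a mitochondrial share of at most 30% and 200 to 9000 genes were kept. A cell took the class with the highest mean z score of its markers (per 10000 UMIs), if this was at least 0.5 and at least 3 markers had a UMI. The score also had to lead the next class by 0.2, except between neighbouring neutrophil stages. These were ProNeu-like with PreNeu-like or imNeu-like cells, the latter classes with early mNeu-like cells, and early with late mNeu-like cells. For them the lead was taken over the class ranked after both. PreNeu-like cells had at least 2 cell-cycle UMIs per 1000 UMIs. Of 165 markers, 1 was not found in the files, and many come from a table of the study on these same libraries. No doublet caller was run. Cells with mixed markers stayed without a class, but those with markers of such neighbouring stages were kept in the stage with the higher score. UMIs were summed per class and library, with exact Poisson, binomial and Clopper-Pearson intervals, and ratios use genes with at least 50 UMIs over both libraries. Members and lists were chosen with earlier results of these data known. Named genes are the 9 receptors in every class, list genes past 2-fold or among the 4 with the highest mean CPM of both libraries in late mNeu-like and monocyte-like cells, and the 3 genes most like each receptor. Scripts used Python 3.11.15, numpy 2.4.6, scipy 1.17.1 and pandas 2.3.3 and were tested on simulated data. Protein sequences and the study's cell labels were not used here.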

Additional observations from a re-analysis of the deposited data

How the results depend on the processing

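The median-of-ratios scaling moved all 9 ratios between the libraries, to 0.56 for *Cxcr2*, -0.12 for *Cxcr4*, 0.47 for *Ccr1*, 0.50 for *Ccr2*, -0.071 for *Cx3cr1*, 0.62 for *Fpr1*, -0.022 for *Fpr2*, 0.54 for *C5ar1* and 0.53 for *Ltb4r1*, since it removes the class median. It left 1 ligand gene past 2-fold in late mNeu-like cells where 2 were before, 1 in monocyte-like cells where 0 was before, and 1 signalling gene there where 2 were before. In cells with 2000 to 8000 UMIs, a window chosen after seeing the data, the ratio was -0.025 for *Ccr2*, which reverses it, and moved to 0.32 for *Cxcr2*, -0.38 for *Cxcr4*, 0.29 for *Ccr1*, -0.51 for *Cx3cr1*, 0.088 for *Fpr1* and 0.087 for *Ltb4r1*. As means of per-cell proportions *Ccr2* was at 0.073, *Cx3cr1* at -0.55 and *C5ar1* at 0.064, and *Fpr2* of cKO, late mNeu-like over imNeu-like, reversed to -0.16. Of the ratios between these stages, 18 more moved beyond their counting interval with no change of sign, 9 of them under per-cell means (*Cxcr4* in Ctrl from 0.76 to 0.50), 7 of 14 under naming by summed marker share (*Fpr1* in cKO from 3.09 to 2.39) and 2 at the floor of 2000 UMIs. Without the shared barcodes, also chosen afterwards, *Ccr2* was at 0.20 and *Cx3cr1* at -0.71. Averaged over maturation bins, another later choice, *Cxcr4* was at -0.40, *Ccr1* at 0.28 and *Fpr2* at -0.27. The causes were not tested. The other settings, floors of 500 and 2000 UMIs, a 10% mitochondrial ceiling, naming by summed marker share, leaving out the 2% of cells with most UMIs or the 5 cells with most of the receptor, and another denominator, left each ratio between the libraries within its main interval, but some intervals then held 0. For *Ccr1* this was so at the floor of 500 UMIs (0.11), under summed marker share (0.057), without the 2% (0.12), with the other denominator (0.12) and without shared barcodes (0.17), for *C5ar1* under summed marker share (0.097) and for *Fpr1* at the floor of 2000 UMIs (0.16), where *Ccr1* was at 0.24 and *C5ar1* at 0.33. Leaving out a replicate was not possible with 1 library per group. No paired analysis was possible because each group has 1 library and no test was run. Depth limits the values of *Cx3cr1* and *Ccr2* in neutrophil classes, which rest on few UMIs.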
